A study of Mus musculus with 2 samples.

Results

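The regions described here are 4 megabase blocks of the mouse genome in which CpG methylation of many 100 kb windows was lower, not higher, in osteoblasts without TET enzymes. In GRCm38 coordinates the blocks were chr7:5000001-15000000, chr6:130000001-135000000, chr13:65000001-70000000 and chr14:40000001-45000000. They were selected on the measured difference between the WT and the TCKO library, so the falls given below are a description of the selected blocks and not a test. All 250 windows of the blocks held at least 100 CpG rows in each library and were members. They split into 100 windows on chromosome 7 and 50 on each of chromosomes 6, 13 and 14, out of 26573 such windows in the nuclear genome and 24020 on the autosomes. The lowest number of CpG rows in a member window was 175, so no window of the blocks was lost to that minimum.

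Both libraries were whole-genome bisulfite libraries of primary osteoblasts taken from the calvaria of 3-day-old C57BL/6 mice and cultured for 3 days. The WT library came from wild-type mice, and the TCKO library from mice that carried Prx1-Cre with all 3 Tet genes floxed on both alleles (Tet1fl/fl, Tet2fl/fl, Tet3fl/fl). Prx1-Cre removes the floxed parts in limb and skull mesenchyme. Each genotype had 1 library. There was therefore no replicate error for any difference, and the 95% intervals given cover counting error only, with calls that lie on the same read counted as if they were independent. The cultures may hold cells in which Cre did not act, and bisulfite conversion does not tell methylcytosine from hydroxymethylcytosine.

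The WT file held 261127589 calls and the TCKO file 223645082. The longest stretch of each Tet gene that lost depth in TCKO, chosen for that loss, held 755 calls in WT and 70 in TCKO for Tet1, 122 and 13 for Tet2, and 133 and 9 for Tet3. In WT the promoters of the osteoblast genes Runx2, Sp7, Col1a1, Col1a2 and Alpl were methylated at 0.613% to 32.1%, and those of the blood, macrophage and endothelial genes Ptprc, Cd3e, Adgre1, Csf1r, Pecam1 and Cdh5 at 61.9% to 78.5%. The muscle gene promoters of Myod1 and Myog were at 32.1% and 65.2%. The part of other cells in the results was not tested.

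TET enzymes oxidise methylcytosine, which is a route to demethylation, whereas DNMT1 copies methylation onto the new strand after replication. Long stretches of mammalian genomes that are poor in CpGs, poor in broadly expressed genes and late in replication are known as partially methylated domains, in which methylation is intermediate and is lost as cells divide. Such stretches often hold tandem arrays of receptor genes and other families that are silent outside a few tissues, and they are rich in repeats.

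From each block the 200 bp stretch with the largest fall was taken, among stretches with at least 4 CpG dyads and 30 calls in each library. That minimum leaves out the most CpG-poor sequence, so the stretches are extremes and not typical of the falls. The windows that hold the chromosome 7 and chromosome 13 stretches were higher in TCKO, by 11.2 and 1.08 points. Repeat-masked bases made up 0%, 3.5% and 0% of the chromosome 7, 13 and 14 stretches. A CpG dyad is a CG of the plus strand with its partner on the minus strand. The sequences are the plus strand of the RefSeq GRCm38 assembly, with every CG in capitals. They lie at chr7:6729601-6729800, within 1 kb of the start of the imprinted gene Peg3 and in an intron of it, chr6:131054401-131054600, 164623 bp from the nearest protein-coding gene, Klra2, chr13:66911201-66911400, in an intron of Mterf3, and chr14:42082001-42082200, 29763 bp from Gm7951.
chromosome 7: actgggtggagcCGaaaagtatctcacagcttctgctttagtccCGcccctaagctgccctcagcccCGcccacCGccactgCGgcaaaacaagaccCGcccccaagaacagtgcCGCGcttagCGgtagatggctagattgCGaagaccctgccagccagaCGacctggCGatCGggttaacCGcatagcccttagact
chromosome 6: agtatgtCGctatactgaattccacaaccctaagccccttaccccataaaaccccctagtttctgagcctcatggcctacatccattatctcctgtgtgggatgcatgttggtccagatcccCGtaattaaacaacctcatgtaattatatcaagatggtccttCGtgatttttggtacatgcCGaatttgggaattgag
chromosome 13: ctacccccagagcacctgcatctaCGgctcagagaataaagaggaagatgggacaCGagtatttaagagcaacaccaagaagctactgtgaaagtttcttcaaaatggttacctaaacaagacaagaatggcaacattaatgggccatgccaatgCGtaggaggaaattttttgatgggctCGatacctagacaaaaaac
chromosome 14: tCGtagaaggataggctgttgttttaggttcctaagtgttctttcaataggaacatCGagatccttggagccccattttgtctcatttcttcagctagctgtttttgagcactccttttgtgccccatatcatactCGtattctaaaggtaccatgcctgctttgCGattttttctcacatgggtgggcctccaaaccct

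The chromosome 13 stretch, with 4 CGs, was methylated in 73 of 75 calls in WT and in 24 of 43 in TCKO, a difference of -41.5 percentage points (95% interval -56.4 to -26.3). Its 4 dyads had 21 of 21, 22 of 23, 16 of 16 and 14 of 15 methylated calls in WT, against 8 of 9, 3 of 12, 4 of 12 and 9 of 10 in TCKO. The fall was therefore unequal along the stretch, and the middle CGs carried more of it than the outer ones. The chromosome 14 stretch went from 34 of 44 methylated calls to 12 of 31 (-38.6 points), and the chromosome 6 stretch, of which 57.5% of bases were repeat-masked, from 29 of 32 to 20 of 35 (-33.5 points). The chromosome 7 stretch had 14 CGs and went from 34 of 44 to 13 of 36 (-41.2 points), but no dyad in it had more than 4 WT calls, so the value rests on few reads. Over the whole Peg3 promoter, 1 kb to each side of the start, the levels were 50.1% and 51.3%. The largest rises in these blocks were larger than the largest falls. The largest rise of a 200 bp stretch was 83.4 points in the chromosome 7 block and 82.9 points in the chromosome 13 block. Of the stretches that met the minimum, 959 of 1933 on chromosome 7, 352 of 988 on chromosome 6, 677 of 1290 on chromosome 13 and 297 of 662 on chromosome 14 were lower in TCKO, against 27.6% of all such stretches on the autosomes. Their median differences were 0, 2.48, -0.599 and 0.934 points in the same order.

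The label of falling methylation held for most windows of each block but for the whole of only 2 of the 4 blocks. Pooled over all its calls, the chromosome 7 block was methylated at 61.5% in WT and 60.1% in TCKO, a difference of -1.43 points (-1.58 to -1.28). The chromosome 13 block was at 69.0% and 67.4%, a difference of -1.57 points (-1.77 to -1.38). The chromosome 6 block was higher in TCKO as a whole, at 62.2% and 63.1% (0.861 points, 0.648 to 1.07), and the chromosome 14 block was at 62.9% and 63.1%, with an interval of the difference that held 0 (-0.0635 to 0.391). The difference of each block lay below that of the autosomes outside the blocks, which went from 70.4% to 76.7%, by 6.29 points. Among the 449 full 5 Mb units of the autosomes, 3 were lower in TCKO as a whole, and these were both units of the chromosome 7 block and the chromosome 13 block. Of all 502 units, partial ones included, 7 were lower, and 3 of these lay in the blocks. The chromosome 14 and chromosome 6 blocks stood 9th and 16th from the lowest of the 502, against a median unit difference of 6.56 points.

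Over the 4 blocks, 191 of 250 windows were lower in TCKO, beside 8.03% of all autosomal windows. The chromosome 7 block held 84 lower windows of 100, with a median difference of -2.26 points and a range of -5.47 to 11.2. The chromosome 13 block had the lowest median, -2.76 points, with 36 of 50 windows lower and a range of -6.48 to 5.98. In the chromosome 6 block 36 of 50 windows were lower, with a median of -1.79 points and a range of -5.75 to 13.4, and in the chromosome 14 block 35 of 50, with a median of -1.41 points and a range of -3.70 to 9.27. The falls were thus small and widespread, not large and local: 8 windows of the 250 fell by at least 5 points, beside 0.229% of autosomal windows, and 24 were higher by at least 5 points, beside 16021 of all 24020 autosomal windows.

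**Figure D1:**
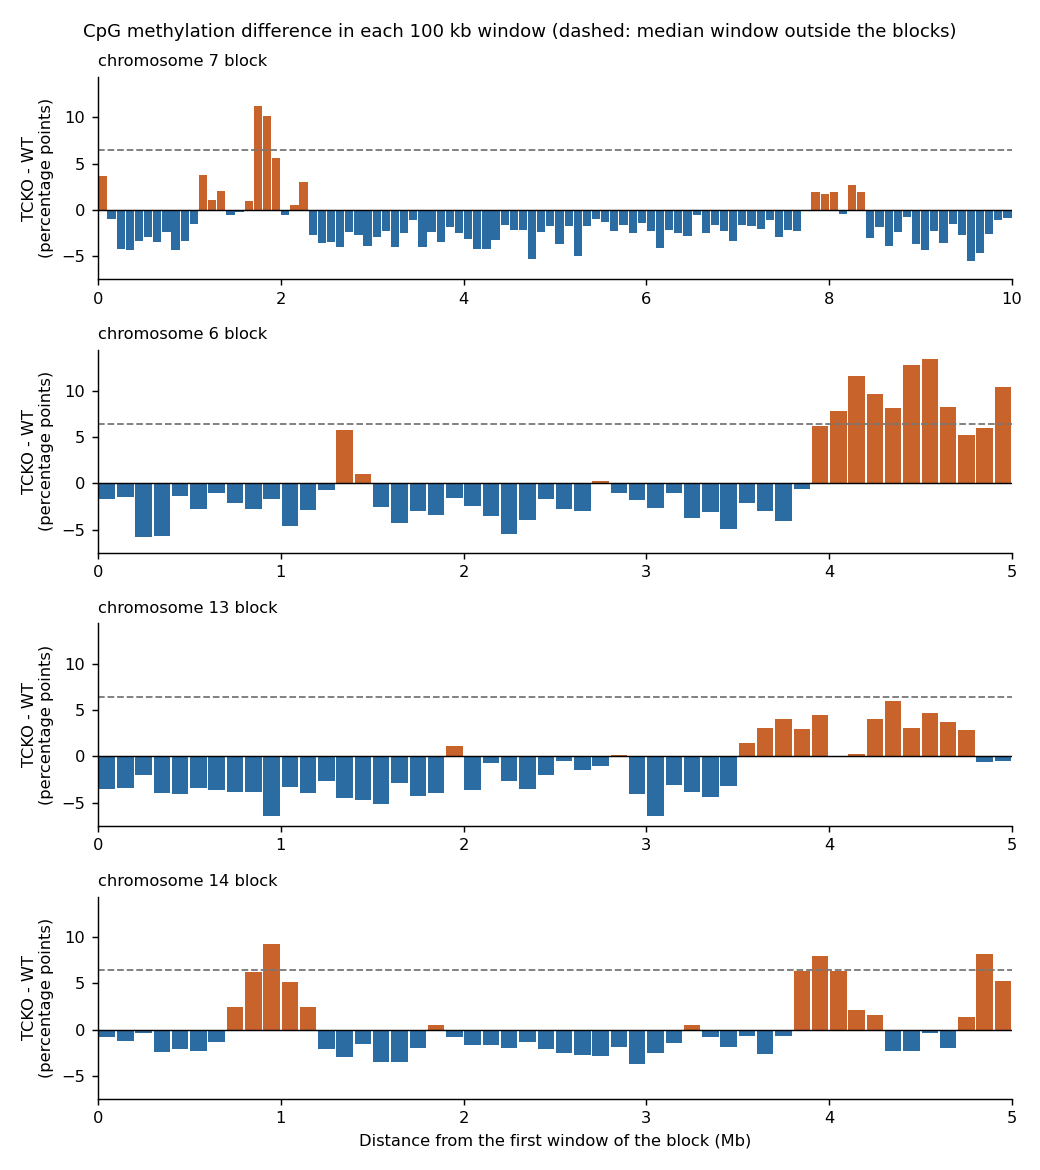
Difference in CpG methylation (TCKO minus WT, percentage points) of each 100 kb window against its distance from the first window of the block in Mb, with lower windows in blue, higher windows in orange and the median window outside the blocks (6.44 points) as a dashed line. Lower windows form long runs of small differences, and the higher windows stand together in a few groups.

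The lower windows lay in runs. On chromosome 7 the longest, chr7:7300000-12699999, held 54 windows in a row that were all lower, and went from 59.1% to 56.4% (-2.63 points). It covers Vmn1r and Vmn2r pheromone receptor genes, though not all of the block's Vmn1r genes, and the Zscan4 cluster. A run of 10 windows at chr7:5100000-6099999 differed by -3.07 points. A run of 16 at chr7:13400000-14999999, with the Sult2a sulfotransferase genes and Vmn1r90, differed by -2.71 points. On chromosome 6, 36 lower windows made up 3 runs, chr6:130000000-131299999 with the Klra genes (-2.64 points), chr6:131500000-132699999 with Tas2r and salivary protein genes (-3.19 points) and chr6:132800000-133899999 (-2.63 points). On chromosome 13 the 19 windows of chr13:65000000-66899999 went from 63.4% to 59.5% (-3.98 points), and 6 windows at chr13:67900000-68499999 differed by -4.24 points. The longest run on chromosome 14 was 13 windows at chr14:41900000-43199999 (-2.01 points).

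Higher windows were clustered too. On chromosome 6 the last 11 windows, chr6:133900000-134999999, went from 70.2% to 79.2%, by 9.08 points, with every window between 5.22 and 13.4 points higher. These 11 windows hold Etv6, Lrp6, Dusp16 and Cdkn1b, and they turn the difference of the whole block positive. On chromosome 7 the largest rise was in the 4 windows around Peg3 and Usp29, chr7:6600000-6999999, by 7.0 points. On chromosome 14, 3 groups of windows were higher, by 5.15 points at chr14:40700000-41199999 around Tspan14, 4.77 points at chr14:43800000-44299999 around Ear1 and Ang5, and 5.11 points at chr14:44700000-44999999 around Ptgdr and Ptger2. On chromosome 13, windows from chr13:68500000-68999999 (3.42 points) and chr13:69100000-69799999 (3.66 points) were higher, around Mtrr, Adcy2, Srd5a1 and Nsun2. Every higher window of chromosome 13 rose less than the median window outside the blocks, the largest by 5.98 points against 6.44.

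Most edges of the blocks were not the edges of lower runs. The 5 windows before the chromosome 7 block were all higher (4.19 points) and the first 5 inside it differed by -1.27 points, whereas the last 5 inside (-2.69 points) and the 5 after it (-3.26 points) were all lower. Before the chromosome 13 block all 5 windows were lower (-4.02 points), like the first 5 inside (-3.64 points), and after it all 5 were higher (7.34 points against 2.27 for the last 5 inside), so the short lower run of 2 windows that ends this block stopped at its edge. Before the chromosome 6 block 4 of 5 windows were lower (-0.599 points, against -2.93 inside), and after it the rise went on (9.10 points, against 8.74 inside). Before the chromosome 14 block 3 of 5 were lower (-0.231 points, against -1.34 inside), and after it all 5 were higher (6.65 points, against 2.55 inside).

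**Figure D2:**
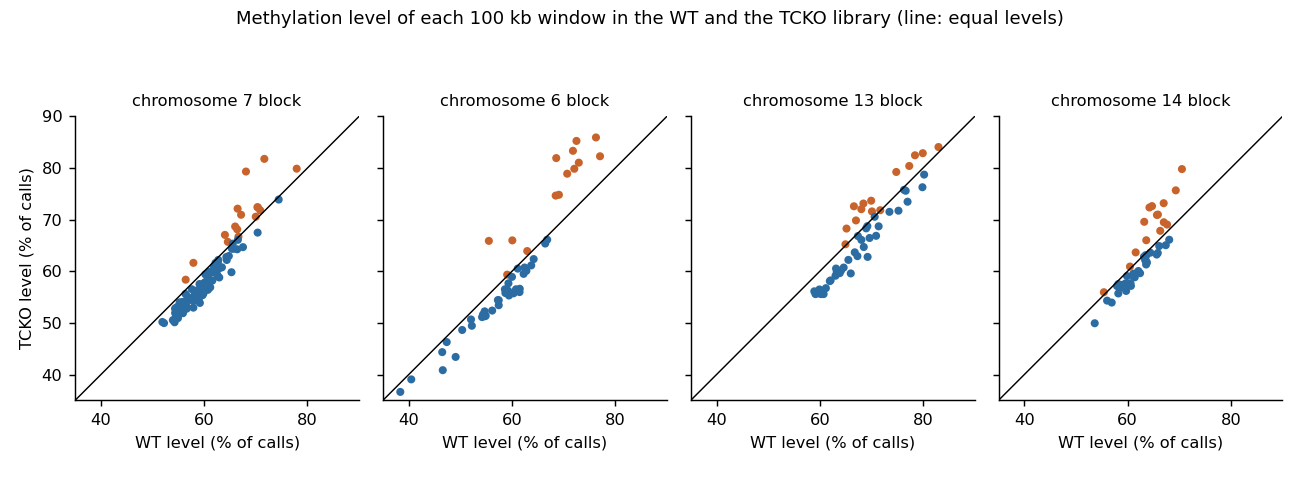
Methylation level of each 100 kb window in WT (x axis) and TCKO (y axis), in percent of calls, 1 panel per block, with lower windows in blue, higher windows in orange and a line of equal levels. Lower windows sit just below the line over the whole range of WT levels, while the higher windows of chromosome 6 leave it by up to 13.4 points.

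CpG-poor sequence carried the fall. Dyads were put into classes by the number of dyads in their 1 kb bin. In the chromosome 7 block, dyads in bins of 1 to 5 went from 54.9% to 52.3% (-2.59 points, -2.84 to -2.33) and those in bins of 6 to 10 from 62.2% to 60.9% (-1.28 points). In the same block the class of 11 to 20 was 0.577 points higher, the class of 21 to 40 differed by 0.114 points (-0.387 to 0.615), and the class over 40, which is CpG-island-like sequence, by 1.38 points. A contribution, the difference of a class times its share of calls averaged over both libraries, says how much of the block's difference came from it. The class of 1 to 5 contributed -0.934 of the -1.43 points and the class of 6 to 10 -0.470, with -0.163 from a shift of calls between classes.

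The other blocks had the same order at the CpG-poor end. In the class of 1 to 5 the difference was -2.84 points on chromosome 13, -2.01 on chromosome 6 and -0.673 on chromosome 14, each with an interval below 0. In the class of 6 to 10 the chromosome 13 block was lower (-1.50 points) and the chromosome 6 block higher (1.04 points), and on chromosome 14 the interval held 0 (-0.100 to 0.622). At 11 to 20 dyads per kb the blocks parted most, with 6.21 points on chromosome 6, 1.62 on chromosome 14 and -0.127 (-0.507 to 0.252) on chromosome 13. The chromosome 13 block was the one with a negative difference in all 5 classes, although at 11 to 20 and over 40 the interval held 0. Outside the blocks the same 5 classes were higher by 4.76, 6.24, 7.82, 5.92 and 1.59 points. The class of 11 to 20 thus had the largest rise there, and the class over 40 changed least.

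Repeats took more of the fall than sequence that is not masked. Soft-masked bases of the reference made up 53.0% of the chromosome 7 block, 44.8% on chromosome 6, 42.1% on chromosome 14 and 37.5% on chromosome 13, against 33.4% outside. Repeat-masked dyads were lower in each block, with differences of -2.18 points on chromosome 7, -1.47 on chromosome 6, -3.08 on chromosome 13 and -1.40 on chromosome 14. Dyads that were not masked were lower on chromosomes 7 (-0.747 points) and 13 (-0.898 points) but higher on chromosomes 6 (2.22 points) and 14 (1.26 points). Over the 4 blocks together the masked dyads went from 64.6% to 62.3% (-2.26 points), and those not masked differed by -0.00356 points. Outside the blocks masked dyads were also the ones with the smaller rise, 2.40 points against 7.53.

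With density and mask combined, all 5 masked classes of the 4 blocks pooled were lower, from -2.98 points at 1 to 5 dyads per kb to -0.826 at 21 to 40, with an interval that held 0 in the class over 40 (-2.53 to 0.0622). Single blocks had exceptions: masked dyads at 11 to 20 were higher on chromosome 6 (0.780 points), and the intervals held 0 at 21 to 40 on chromosome 14 (0.516 points) and over 40 on chromosome 13 (1.10 points). Among dyads that were not masked, the class of 1 to 5 was lower (-1.89 points) and the other 4 were higher, with 3.65 points at 11 to 20. In the pooled blocks the most CpG-poor class, 1 to 5, was therefore lower with and without the mask, although on chromosome 14 the interval of its dyads that were not masked held 0 (-0.158 points). Had each of the 10 classes changed as it did outside, the blocks with their own make-up would have been higher by 4.71 points on chromosome 7, 5.34 on chromosome 6, 5.87 on chromosome 13 and 4.95 on chromosome 14. The changes of their own classes came to -1.25, 1.11, -1.40 and 0.187 points. In each block 9 of the 10 classes lay below the same class outside. The blocks were chosen on this difference, so these gaps are a description and no test of density or repeats.

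**Figure D3:**
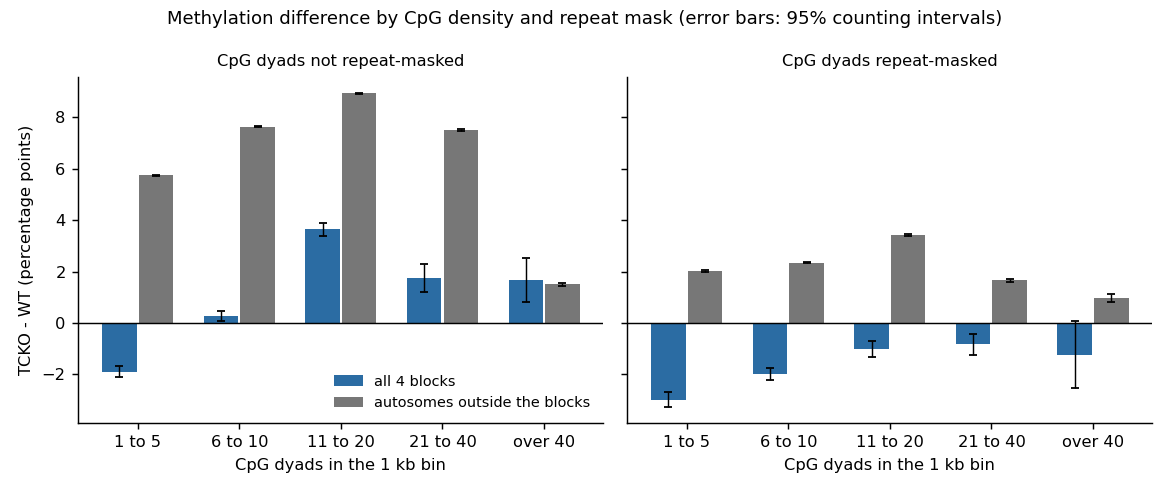
Methylation difference (TCKO minus WT, percentage points) of CpG dyads by the number of dyads in their 1 kb bin, for dyads not repeat-masked (left) and repeat-masked (right), in the 4 blocks together (blue) and on the autosomes outside them (grey), with 95% counting intervals. All 5 masked classes and the most CpG-poor class that is not masked are below 0 in the blocks and above 0 outside.

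Across the 250 windows, the difference went down with the repeat-masked share (Spearman's rho -0.50). It went up with GC content (0.52), with the WT level (0.43), which is part of the difference, and with the number of dyads per kb (0.35). These values are a description of neighbouring windows of the same 2 libraries. Of the windows with under 30% masked bases, 2 of 25 were lower, of those with 30 to 40%, 26 of 49, and of those with 40 to 50%, 68 of 78. From 50 to 60%, 65 of 68 windows were lower, and from 60% all 30. Outside the blocks the share of lower windows in the same 5 groups was 0.635%, 3.54%, 15.3%, 34.8% and 58.1%. The blocks therefore followed the direction of the rest of the genome with repeat content. They had a larger share of lower windows at each level, which their selection on this difference favours.

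**Figure D4:**
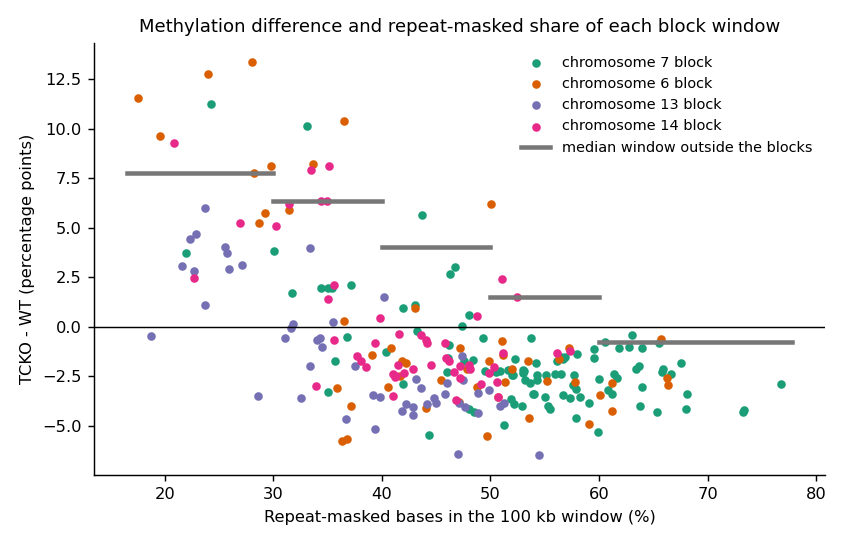
Difference in methylation of each block window (TCKO minus WT, percentage points) against the percent of its bases that are repeat-masked, coloured by block, with grey lines at the median window outside the blocks in each group of masked share. Above 60% all 30 block windows are below 0, and below 30% all but 2 of 25 are above 0.

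Sequence between genes carried most of the fall. In the 4 blocks, dyads outside promoters, protein-coding genes, pseudogenes and long noncoding RNA genes made up 58.3% of dyads and went from 62.5% to 60.5% (-1.95 points). They contributed -1.19 points to a pooled difference of -0.925. Introns were higher (1.97 points, a contribution of 0.401), exons differed by -0.0225 points and promoters by 0.844. Pseudogenes differed by -2.41 points, contributing -0.169, and long noncoding RNA genes were higher by 1.26 points. The pooled value depended on the weights: the mean of the 4 block differences was -0.496 points, and as the mean of single cytosines the pooled value turned to 0.0712 points.

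Lower and higher windows held different genes. The 191 lower windows contained the midpoints of 241 protein-coding genes, 218 of them from the tandem or predicted gene families that were listed by symbol, and 459 pseudogenes. The 59 higher windows contained 112 protein-coding genes, 58 of them from those families, and 68 pseudogenes. Genes of no listed family therefore numbered 23 in the 191 lower windows and 54 in the 59 higher ones. The median lower window had 49.9% of masked bases and 5.91 dyads per kb, and the median higher window 33.1% and 8.82.

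Of the 353 protein-coding genes of the blocks, 275 had at least 200 calls in each library over the gene body. In these 275, 172 bodies were lower in TCKO, beside 13.2% of all measured bodies on the autosomes, with a median of -1.42 points against 5.93 outside. Of the 134 pseudogenes measured, 93 were lower (background 36%), most of them on chromosomes 7 (56 of 77) and 13 (21 of 26), and 5 of 12 on chromosome 14. Long noncoding RNA genes were lower in 32 of 71 cases (background 8.6%), but with 24 of 34 on chromosome 13 and 0 of 7 on chromosome 6. The chromosome 13 block was thus the only one of the 4 in which most long noncoding RNA genes were lower.

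Among receptor families, the Klra genes of the chromosome 6 block encode Ly49 receptors of natural killer cells. All 9 measured Klra bodies were lower, with a median of -4.09 points. Outside the blocks 10 of 22 measured natural killer receptor bodies were lower, with a median of 1.51 points. Klra3 (chr6:130323289-130337574) went from 52.7% of 393 calls to 44.6% of 298 (-8.04 points, -15.4 to -0.517), and Klra7 from 59.1% of 550 calls to 51.1% of 513 (-8.02 points, -13.9 to -2.04). Klra8, Klra1, Klra2, Klra4, Klra9, Klra6 and Klra10 lay between -6.43 and -1.63 points. WT levels in this family ran from 32.4% in Klra6 to 65.6% in Klra2, so the falls were not tied to 1 starting level.

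Pheromone receptor genes made up much of the chromosome 7 block. Of the Vmn2r genes 27 of 29 were lower, with a median of -2.68 points, and of the Vmn1r genes 25 of 31, with a median of -2.49. Vmn1r90 (chr7:14555474-14563506) had the largest fall of any gene body in the blocks, from 59.6% of 250 calls to 40.4% of 250 (-19.2 points, -27.5 to -10.5). Outside the blocks the same families were also mostly lower, in 65 of 92 and 60 of 100 bodies. All 10 measured olfactory receptor genes of the blocks, a family added to the list after values had been seen, were lower, led by Olfr1348 on chromosome 7, from 58.8% to 49.5% (-9.26 points), and Olfr465-ps1 on chromosome 13, from 62.8% to 54.7% (-8.11 points). Outside the blocks 545 of 962 olfactory receptor bodies were lower. No Tas2r bitter taste receptor gene reached 200 calls. Tas2r110 went from 78.1% of 146 calls to 71% of 131 (-7.09 points, -17.3 to 3.14).

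Families expressed in liver, salivary gland and germ cells were lower as well. All 8 Sult2a genes, which encode sulfotransferases of bile acids and steroids, lay between -3.85 points (Sult2a4, from 62.9% of 8177 calls to 59.1% of 7149) and -1.76 points (Sult2a7). The Sult2a bodies varied little among themselves, and Sult2a1 itself went from 54.3% to 51.8% (-2.49 points, -5.05 to 0.0633). The salivary genes Prpmp5, Prh1 and Prp2 differed by -6.72, -5.63 and -4.67 points. The Nlrp genes, of a family active in oocytes, were lower in 4 of 4 bodies, from Nlrp4f on chromosome 13 (62.3% to 55.5%, -6.77 points) to Nlrp4c on chromosome 7 (64.3% to 63.7%, -0.573 points). Obox7, an oocyte homeobox gene, went from 61.3% of 653 calls to 52.8% of 583 (-8.43 points). Outside the blocks 7 of 13 Nlrp bodies and 5 of 5 Obox bodies were lower too.

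Zinc finger genes were divided. These genes, many of which encode KRAB proteins that silence transposable elements, were lower in 36 of 58 measured bodies, with a median of -0.953 points against 3.81 outside. Outside the blocks 64 of 356 were lower. On chromosome 13 20 of 26 were lower, and on chromosome 7 16 of 32. Zscan4-ps1, annotated as protein-coding in the Zscan4 cluster that is active in the early embryo, went from 68.1% to 58.5% (-9.60 points, -17.4 to -1.71), Zscan4d from 61.0% to 55.9% (-5.03 points, -13.7 to 3.64) and Zscan4c from 67.1% to 63.9% (-3.17 points, -12.4 to 5.96). On chromosome 13 Zfp712 (chr13:67038596-67061170) went from 79.7% to 72.5% (-7.19 points, -10.2 to -4.26). Rsl1, a repressor of sex-limited liver genes, differed by less than its counting interval (-1.42 points, -5.09 to 2.12), and Zfp85 in the same cluster was higher, from 74.7% to 80.7% (5.97 points, 2.23 to 9.62).

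Among protein-coding genes, those of no listed family held the largest body rises of the blocks. Their 73 measured bodies were higher in 55 cases, with a median of 2.87 points, so they too were below the same class outside, where 15014 of 16393 were higher with a median of 6.31. Lrp6 (chr6:134446476-134566965), a Wnt co-receptor, went from 71.1% of 17096 calls to 85.7% of 14985 (14.5 points, 13.6 to 15.4), Bcl2l14, of the BCL-2 family, from 68.7% to 80.9% (12.2 points), and Etv6, an ETS repressor, from 73.5% to 83.8% (10.2 points). Cdkn1b, a cyclin-dependent kinase inhibitor, went from 23.6% to 35.7% (12.2 points) and Dusp16, a MAP kinase phosphatase, from 76.6% to 82.2% (5.59 points). The bodies were higher, while the intervals of the promoter differences of Lrp6, Etv6, Cdkn1b and Dusp16 held 0. The Lrp6 promoter had 0 methylated calls of 458 in WT and 0.239% of 419 in TCKO, and the Etv6 promoter was at 0.294% and 0.357%. The Cdkn1b promoter was at 9.90% and 11.6%, with an interval of the difference of -2.63 to 6.63 points.

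In the higher windows of chromosome 7, Lig1, a DNA ligase of replication, went from 60.02% to 72.5% (12.5 points, 9.74 to 15.1), Chmp2a, of the ESCRT-III complex, from 41.6% to 52.4% (10.8 points), and Trim28, the co-repressor that KRAB proteins recruit, from 58.4% to 63.1% (4.63 points, 2.49 to 6.76). At the imprinted cluster, Usp29 was higher by 10.1 points, Peg3 by 6.22 and Zim1 by 5.17. The Zim1 promoter was higher by 10.1 points (1.60 to 18.6), and the Peg3 and Usp29 promoters, which overlap, had differences of 1.28 (-4.01 to 6.57) and 3.17 (-2.11 to 8.41) points. On chromosome 13, Adcy2, an adenylate cyclase, was higher by 3.29 points (2.67 to 3.91), Mtrr, methionine synthase reductase, by 3.88 and Nsun2, an RNA cytosine methyltransferase, by 3.79, and Srd5a1, a steroid reductase, by 0.483 (-1.31 to 2.26). The largest fall there among genes of no listed family was in Prss47, a serine protease gene, from 64.7% to 57.3% (-7.33 points).

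The chromosome 14 block consists largely of predicted genes with Gm names, of which 21 of 29 measured bodies were lower, with a median of -1.55 points. Outside the blocks 199 of 703 measured bodies of such genes were lower. Gm8104 went from 66.3% to 59.4% (-6.95 points, -13.7 to -0.238) and 1700001F09Rik, of no listed family, from 53.2% to 45.7% (-7.50 points, -14.1 to -0.849). Many predicted genes of one array can share sequence, so with uniquely mapped reads the values of single members are uncertain. The named genes of the block were mostly higher. Ptgdr, a prostaglandin D receptor, went from 48.7% to 65.2% (16.5 points, 11.1 to 21.7), Ang5, of the angiogenin family, from 64.0% to 76.8% (12.8 points), Tspan14, a tetraspanin, from 74.8% to 83.2% (8.42 points) and Ear1, an eosinophil-associated ribonuclease, from 64.5% to 70.04% (5.52 points). Of the 3 measured collectins, which bind sugars of microbes, 1 was lower (-3.14 points). Mbl1 (4.35 points, -0.515 to 9.11) and Sftpd (2.42 points, -2.19 to 6.98) had intervals that held 0, as did the liver enzyme Mat1a (0.951 points). Ear2 stayed under the minimum with 94 and 54 calls.

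**Figure D5:**
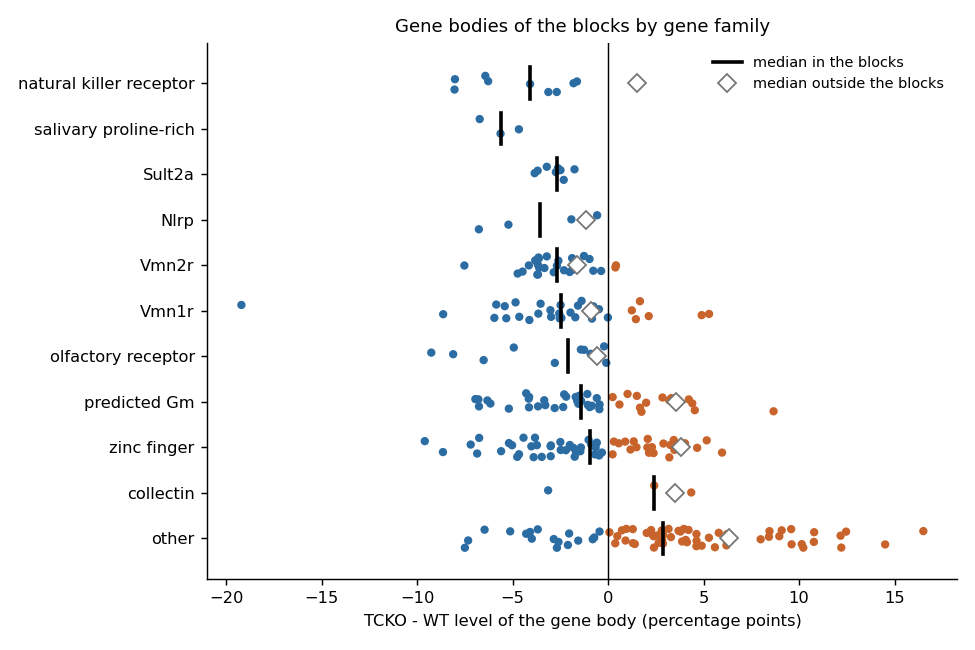
Methylation difference (TCKO minus WT, percentage points) of each measured protein-coding gene body of the blocks, 1 row per family with at least 3 measured bodies, with lower bodies in blue and higher in orange, a black bar at the median in the blocks and an open diamond at the median of the family outside the blocks. Receptor, salivary and Sult2a genes lie mostly or all below 0, zinc finger genes lie on both sides, and genes of no listed family reach 16.5 points.

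Promoters were lower less uniformly than windows. With at least 40 calls in each library, 179 of 330 promoters were lower and 151 higher, beside 27% lower on all autosomes. With promoters taken as the 2 kb before the start, 170 of 341 were lower, but the 27% does not apply to that definition and no autosomal share is given for it. The 2 largest falls of each block, selected as such, included Gm16506 on chromosome 14, from 75.2% of 133 calls to 44.2% of 104 (-31.0 points, -42.2 to -18.5), Gm8024 on chromosome 14 (-21.1 points), and Olfr1336 on chromosome 7, from 68.6% to 50.6% (-18.0 points). The others were Gm10775 (-17.7 points) and Gm28044 (-17.4 points) on chromosome 13, Tas2r121 (-16.6 points) and Tas2r114 (-15.0 points) on chromosome 6, and Olfr1348 (-14.2 points). All 8 began between 53.0% and 75.2% methylation in WT. A promoter unmethylated in WT could not have been selected here, since its level cannot fall. In each block the largest promoter rise was larger than the largest fall. These rises were 26.9 points on chromosome 7, 18.5 on chromosome 6, 20.9 on chromosome 13 and 43.5 on chromosome 14.

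At single CpGs, the blocks differed from the rest by fewer gains and more losses. Of 64241 dyads with at least 10 calls in each library, 50.1% were lower and 46.6% higher, against 34.1% and 61.8% outside. Falls of over 40 points made up 1.01% of dyads in the blocks and 0.274% outside, and rises of over 40 points 1.30% and 4.21%. In WT, 66.9% of block dyads had levels of 20 to 80%, against 51.7% outside. The chromosome 13 block had the most large falls, 2.30% of its dyads, against 0.520% to 0.774% in the other 3. Dyads methylated at 80% or more in WT with no methylated call in TCKO numbered 31 of 117620 with at least 4 calls in each library (0.0264%), against 0.0233% outside.

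The ratio of TCKO to WT calls was 0.868 on chromosome 7, 0.872 on chromosome 6, 0.854 on chromosome 14 and 0.856 outside, but 0.725 on chromosome 13, with windows from 0.582 to 1.11. The rest of chromosome 13 had a ratio of 0.843, and the 5 windows before and after the block 0.731 and 0.779. Lower and higher windows of that block had median ratios of 0.727 and 0.700. Across windows, the difference went down as the ratio went up, with a Spearman's rho of -0.47 on chromosome 6, -0.29 on chromosome 13, -0.19 on chromosome 7 and -0.19 on chromosome 14, again a description of neighbouring windows. The median ratio was 0.885 in lower and 0.856 in higher windows on chromosome 6. It was 0.869 and 0.841 on chromosome 7, and 0.850 and 0.844 on chromosome 14. The part of depth in these results was not tested. The share of CpG cytosines covered in WT was 79.6%, 79.1% and 81.9% in the chromosome 7, 6 and 14 blocks. It was 85.2% on chromosome 13 and 85.3% outside. In TCKO the shares were 77.8%, 77.7% and 80.3% in the same order, 79.8% on chromosome 13 and 83.5% outside.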

How the data were processed

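Whole-genome bisulfite sequencing was done on 1 WT and 1 TCKO osteoblast library. The authors aligned reads to GRCm38 with BSMAP 2.74, allowing mismatches and keeping only uniquely mapped reads, and the deposited files give, for each CpG cytosine, the counts of methylated and of all calls, which are not normalized. Uniquely mapped reads leave out repeat copies that cannot be told apart. The members and lists were chosen with earlier results of these data known.

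Calls were joined to the CpG dyads and the soft mask of the RefSeq GRCm38 assembly and to GENCODE genes. Levels are pooled methylated calls over all calls, with Wilson 95% intervals, and differences are TCKO minus WT in percentage points with Newcombe intervals. No test was run, since each genotype has 1 library and the blocks were selected on this contrast. Windows needed 100 CpG rows, gene bodies 200 calls, promoters (1 kb to each side of the start) 40 calls and 200 bp stretches 4 dyads and 30 calls, in each library. Named genes were, per block, the 3 bodies with the largest fall, the 2 with the largest rise and the 2 promoters with the largest fall, plus 30 listed genes, of which 27 lie in the blocks, and other members of the listed families were named after their values were seen. 1 listed marker gene is not reported here. The window sums were tested on simulated data. Alternatives were another weighting of cytosines, call minimums, single strands, removal of the deepest cytosines and of dyads at 0 in 1 library. Python 3.11.15, numpy 2.4.6 and pandas 2.3.3 were used.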

Additional observations from a re-analysis of the deposited data

How the results depend on the processing

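No paired analysis was possible because each genotype had 1 library, and no library could be left out for the same reason. The block differences depended on how cytosines were weighted. As the mean of single cytosines they were -0.856 points on chromosome 7, 2.40 on chromosome 6, -0.586 on chromosome 13 and 0.817 on chromosome 14, and the value of all 4 blocks turned to 0.0712. With at least 4 calls in each library the chromosome 6 block was at 0.552 points and the chromosome 14 block turned to -0.0482. Without the deepest 1% of cytosines the chromosome 6 block was at 1.10 and all 4 blocks at -0.816, and the chromosome 6 block was at 1.21 on the plus strand and 0.496 on the minus strand. In alternatives chosen after seeing the data, the value of all 4 blocks was -0.496 as the mean of the 4 block differences and -0.483 without the chromosome 13 block. The chromosome 7 and chromosome 13 blocks stayed lower in each of these alternatives. The count of lower windows ran from 183 to 191 of 250, but 63 of the 115 windows with at least 1000 CpG rows were lower, and 8 windows fell by at least 5 points. No autosomal share is given for the minimum of 1000 rows. With density counted in 200 bp bins the class over 40 dyads per kb turned to -0.778 points, the class of 11 to 20 was at 0.0591 in place of 1.75 and the class of 21 to 40 at 1.34 in place of 0.408. With promoters as the 2 kb before the start, 170 of 341 were lower in place of 179 of 330, a count given without an autosomal share. The cause of these shifts was not tested. With 1 library per genotype no difference has a replicate error, and calls on the same read make the intervals too narrow.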
